A study of Mus musculus with 28 samples.

Results

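The clustered protocadherins are a large family of cadherin-like adhesion proteins whose genes lie side by side in the alpha, beta and gamma clusters. They were followed here through the reprogramming of mouse fibroblasts and in the induced pluripotent stem cells (iPSC) obtained from it. Every gene identifier was taken whose symbol was Pcdha, Pcdhb, Pcdhga, Pcdhgb or Pcdhgc with a number, or Pcdhac1 or Pcdhac2. This gave 58 identifiers with 57 symbols, of 54109 identifiers in the reprogramming table and 54838 in the iPSC table. They were 12 alpha identifiers (Pcdha11 stood on 2 of them), 22 beta genes, 12 gamma A genes, 7 gamma B genes and the 5 C-type genes Pcdhac1, Pcdhac2, Pcdhgc3, Pcdhgc4 and Pcdhgc5. In mm10 the alpha genes span chromosome 18 from 36930285 to 37188897, the beta genes from 37264998 to 37521419 and the gamma genes from 37661775 to 37841873 (RefSeq gene models).

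Each alpha or gamma gene has a variable first exon with its own promoter, which is spliced to exons shared by the whole cluster, whereas a beta gene has no shared exons. Neurons use these promoters in combinations that differ from cell to cell, through CTCF, cohesin and DNA methylation, and the proteins on opposing cell surfaces bind each other when they match. The C-type genes stand at the 3' end of the alpha and gamma clusters and are regulated apart from the rest. Because of the shared exons, a read outside a variable exon fits several alpha or several gamma genes. How such reads were counted is not given in the sources used here, so part of the alpha and gamma output may be missing from the per-gene values.

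The cells were mouse embryonic fibroblasts, heterozygous for Rosa26-rtTA and Oct4-GFP, with either a heterozygous doxycycline-inducible OKSM allele or a homozygous inducible OKS allele; the labels do not say which library carried which. All 12 reprogramming libraries came from cells in doxycycline (DOX) on irradiated feeder cells: 3 had DOX alone, 3 also had UNC0638 (UNC, an inhibitor of the H3K9 methyltransferases G9a and GLP, at 1 µM), 3 had 3C in place of UNC, and 3 had both additions. 3C is L-ascorbic acid, CHIR99021 (a GSK3 inhibitor) and a TGF-beta receptor I kinase inhibitor. The 6 iPSC libraries came from cells derived with DMSO (3) or with UNC during the first 48 hours (3). The labels name neither the time of RNA collection in the reprogramming libraries nor separate cultures for the replicates, so p-values measure only the spread between these libraries, which may be technical.

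Depth, in units of 1e+06 gene reads, was 10.6 to 20.2 per reprogramming library and 21.6 to 25.4 per iPSC library. Values below are normalised counts (reads divided by 1 factor per library) or CPM (reads per 1e+06 gene reads). Checked against markers of the labelled cell types, the 10 fibroblast markers summed to 3323 to 10185 CPM during reprogramming and to 1423 to 2572 CPM in the iPSC, where 9 or 10 of them still had 10 or more reads. The 8 pluripotency markers summed to 109 to 230.0 CPM during reprogramming and to 4407 to 4961 CPM in the iPSC, and Nanog to 0.155 to 0.564 CPM and 426 to 487 CPM. In each reprogramming library only 3 to 5 of the 8 had any read and only 1 or 2 had 10 or more, so the sum there rests on 1 or 2 genes. Among the 8 is Pou5f1 (Oct4), a factor of the inducible alleles, so the sum during reprogramming may include transgene reads. In the iPSC all 8 had 10 or more reads. Of 11 neuronal markers 8 to 10 had reads in each reprogramming library (126 to 291 CPM in sum) and 10 or 11 in each iPSC library (519 to 558 CPM); Rbfox3 was at 0 in the DOX libraries and Snap25 in both groups with UNC. 1 library stood apart in haemoglobin and other erythroid markers. They summed to 134 CPM in DOX with 3C replicate 1 and to 7.75 to 16.2 CPM in the other 11 reprogramming libraries. The 5 macrophage markers summed to 5.53 to 9.09 CPM in replicate 1 of each reprogramming group. In replicates 2 and 3 of these groups they summed to 13.9 to 28.1 CPM. These are bulk samples, in which fewer cells of a type and less RNA per cell cannot be told apart.

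The alpha genes were almost silent and the beta genes low, while the gamma genes other than Pcdhga10 and the C-type genes other than Pcdhac1 were read in every library. Pcdhga10 had 5 reads in 2 reprogramming libraries and 2 reads in 1 iPSC library. The 12 alpha identifiers together collected 14 reads in the 12 reprogramming libraries and 42 in the 6 iPSC libraries. Of these, 7 had no read during reprogramming, which allows at most 0.0169 CPM over the 12 libraries (3 reads of the total, for counting error only). Pcdha12, with 4 reads in reprogramming libraries and 21 in the iPSC, was the one alpha gene read in all 6 iPSC libraries. Pcdha2, Pcdha4, Pcdha6 and Pcdha8 had no read in any of the 18 libraries. Pcdhac1, the first C-type gene of the alpha cluster, had 0 reads during reprogramming and 3 in the iPSC. By contrast its neighbour Pcdhac2 had reads in all 18 libraries, 325 and 62 in total.

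**Figure D1:**
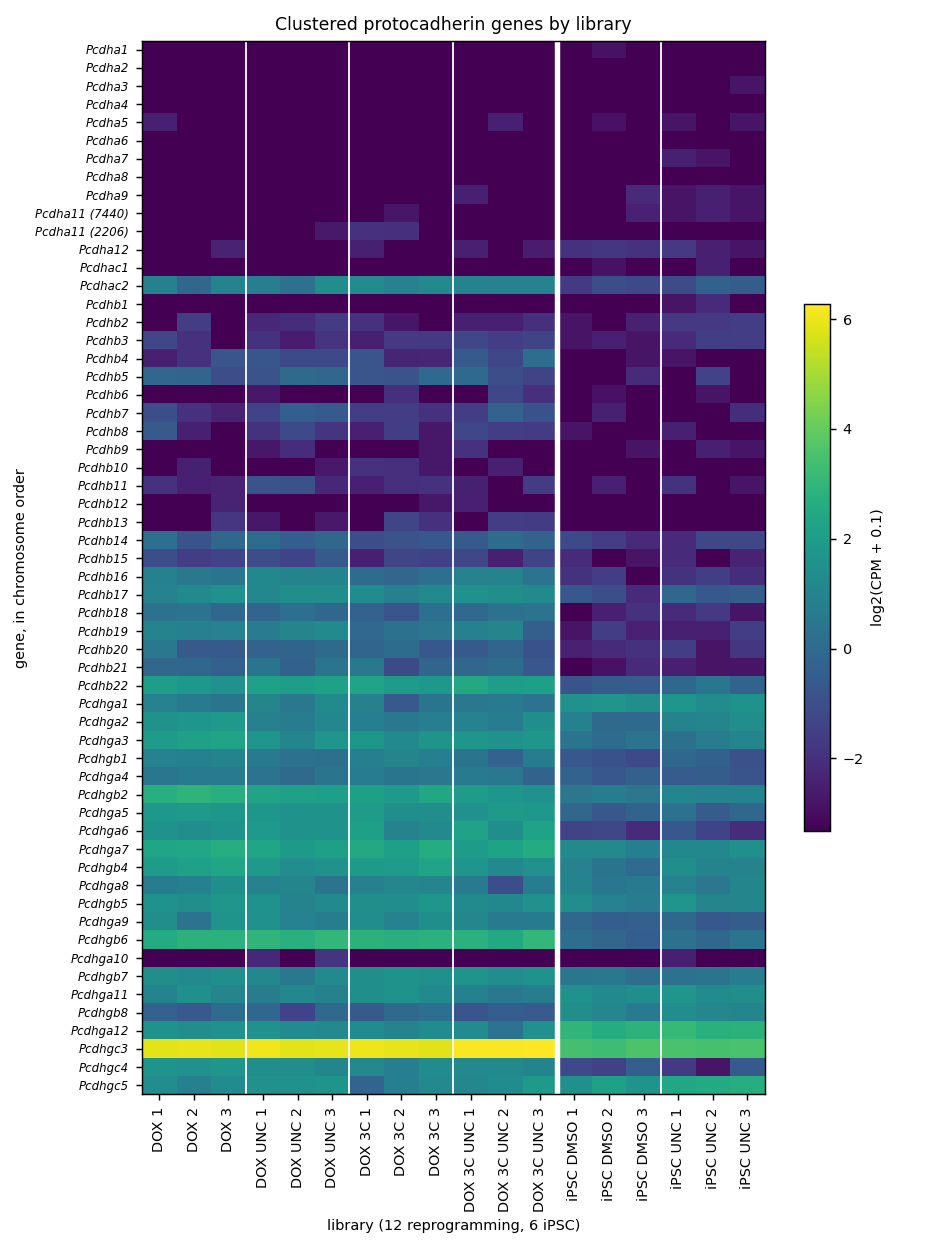
Level of each of the 58 identifiers (rows, in chromosome order; the 2 identifiers with the symbol Pcdha11 carry the last digits of their identifier) in the 18 libraries (columns), as log2(CPM + 0.1), with white lines between groups. The alpha rows are dark throughout, the gamma rows other than Pcdhga10 are filled in every library, and Pcdhgc3 is the brightest row; rows are not corrected for transcript length.

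Not all members could be tested. The test during reprogramming took genes that reached 10 normalised counts in 3 or more libraries, as 31 of the 58 identifiers did: 9 of 22 beta genes, 11 of 12 gamma A genes, all 7 gamma B genes, 4 of 5 C-type genes and no alpha gene. Pcdhb7 and Pcdhb4 lay just outside, with third-highest values of 8.93 and 7.69 normalised counts, and Pcdhb5 and Pcdhb20 just inside, at 12.8 and 14.1. In the iPSC 21 members were tested, among them 2 beta genes and all 7 gamma B genes. A member can pass such a filter through the group in which it is high, so the counts of calls below describe the tested members only.

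More clustered protocadherin reads came from Pcdhgc3 than from any other member: it is the C-type gene whose first exon lies nearest to the gamma A and gamma B exons (chromosome 18, 37806410 to 37841873). During reprogramming it gave 40.9% to 54.4% of the family's reads, with a median of 46.9%, and in the iPSC 19.3% to 26.8%. The C-type genes as a group gave 46.2% to 59.1% of the reads during reprogramming, gamma A 16.3% to 24.5%, gamma B 12.3% to 19.8%, beta 9.54% to 13.5% and alpha at most 0.170%. These shares are of reads, and longer transcripts give more of them. In the iPSC gamma A had the largest share, 39.0% to 46.1%, above C-type with 27.8% to 35.5%, and beta had 3.69% to 7.02%. Neither the C-type, the gamma A nor the beta shares overlapped between the tables. The tables were deposited separately, and whether both were counted alike is not given, so no test was made across them.

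**Figure D2:**
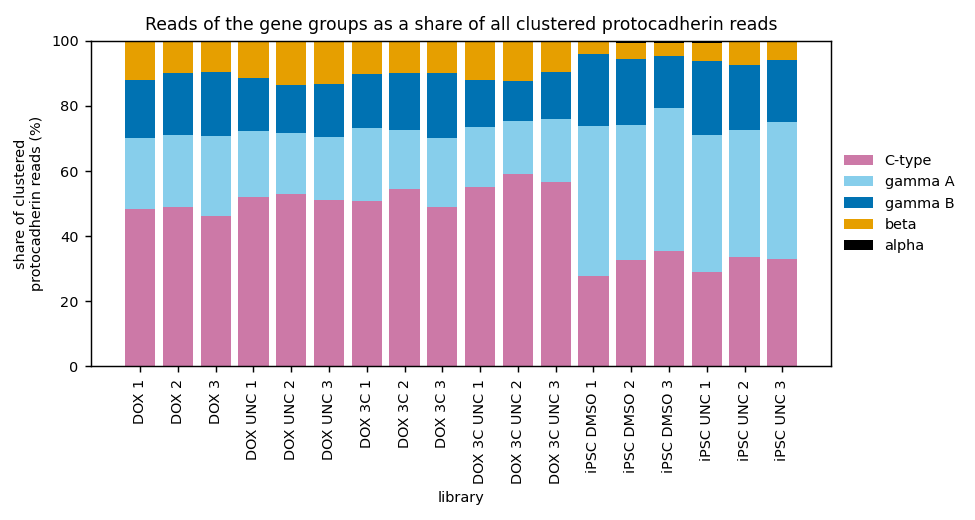
Share of all clustered protocadherin reads (%) taken by each gene group in each library, stacked to 100%. The C-type share is 46.2% to 59.1% in the 12 reprogramming libraries and 27.8% to 35.5% in the 6 iPSC libraries, where gamma A is larger; alpha is too small to see in most bars.

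Summed over all members, the values were 2127 ± 19.3 normalised counts (SD, n = 3) in DOX, 2095 ± 121 with UNC, 1960.4 ± 115 with 3C and 2182 ± 81.9 with both. On this scale the libraries with 3C lay below those in DOX alone and below those with 3C and UNC, but in CPM they overlapped both. The sum was 124 to 149 CPM in reprogramming libraries and 45.2 to 58.6 CPM in the iPSC, so the ranges did not overlap.

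For the beta genes, which are single blocks of sequence, levels can be set against length. Per kilobase of RefSeq gene span, Pcdhb22 stood highest during reprogramming with a mean of 1.32 CPM (0.921 to 1.75 over the 12 libraries), followed by Pcdhb17 with 0.716 (0.530 to 0.864), and their ranges did not overlap. Pcdhb19 (0.331), Pcdhb21 (0.310) and Pcdhb16 (0.281) came next, with ranges that overlapped each other. Pcdhb1, at the other end of the cluster, had no read in these libraries. These 5 genes lie between Pcdhb16 and Pcdhb22, at the end of the beta cluster nearest to the gamma genes.

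UNC added to DOX alone changed none of the 31 tested members at an adjusted p below 0.05, where 0.607% of all 16138 tested genes were called (limma). Neither edgeR nor DESeq2 called any, and 5 members (16.1%, against 9.33% of all genes) had an unadjusted p below 0.05: Pcdhga2, Pcdhga3, Pcdhgb1, Pcdhgb2 and Pcdhgb4, each with a lower mean under UNC. The libraries of the 2 groups did not overlap for 8 members with lower values under UNC (25.8% of the 31, against 6.69% of all genes) and for 3 with higher values (9.68% against 8.47%). The 8 were those 5 with Pcdhga4, Pcdhga5 and Pcdhgc4. The 3 were Pcdhb16, Pcdhga6 and Pcdhgc5.

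Pcdhga2 had 44.1, 49.2 and 55.6 normalised counts in the DOX libraries and 26.5, 25.2 and 33.9 in those with UNC. The groups did not overlap, and the log2 fold change was -0.78 ± 0.23 (standard error; 95% interval -1.27 to -0.30, adjusted p = 0.161). Pcdhga3 had 60.1, 68.5 and 74.7 in DOX and 48.7, 31.8 and 49.1 with UNC (log2 fold change -0.66 ± 0.20, adjusted p = 0.198). Pcdhgb2 had 98.1, 115 and 99.6 in DOX and 74.3, 70.1 and 66.0 with UNC (log2 fold change -0.56 ± 0.17, adjusted p = 0.188). All of these genes encode adhesion proteins with the same cytoplasmic end, given by the shared gamma exons. In chromosome order the 7 gamma A and gamma B genes without overlap lay between Pcdhga2 and Pcdhgb4, but Pcdhga6 and Pcdhga7, which lie among them, did not share this: Pcdhga6 was higher with UNC and Pcdhga7 overlapped.

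By group, 6 of 7 gamma B and 9 of 11 gamma A genes had a negative log2 fold change, with medians of -0.39 and -0.25, while 8 of 9 beta genes had a positive one, with a median of 0.10. The median of all tested genes was 0.00. The gamma B values summed to 400 ± 26.2 normalised counts in DOX and 331 ± 36.0 with UNC, without overlap, and the beta values to 224 ± 27.9 and 267 ± 14.3, with overlap. Summed fibroblast markers were 7915 to 8804 CPM in DOX and 9746 to 10185 CPM with UNC, though 0 of 10 were called. Summed neuronal markers were 196 to 207 CPM and 254 to 291 CPM, with 1 of 7 tested called higher. Their part in these values was not tested.

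**Figure D3:**
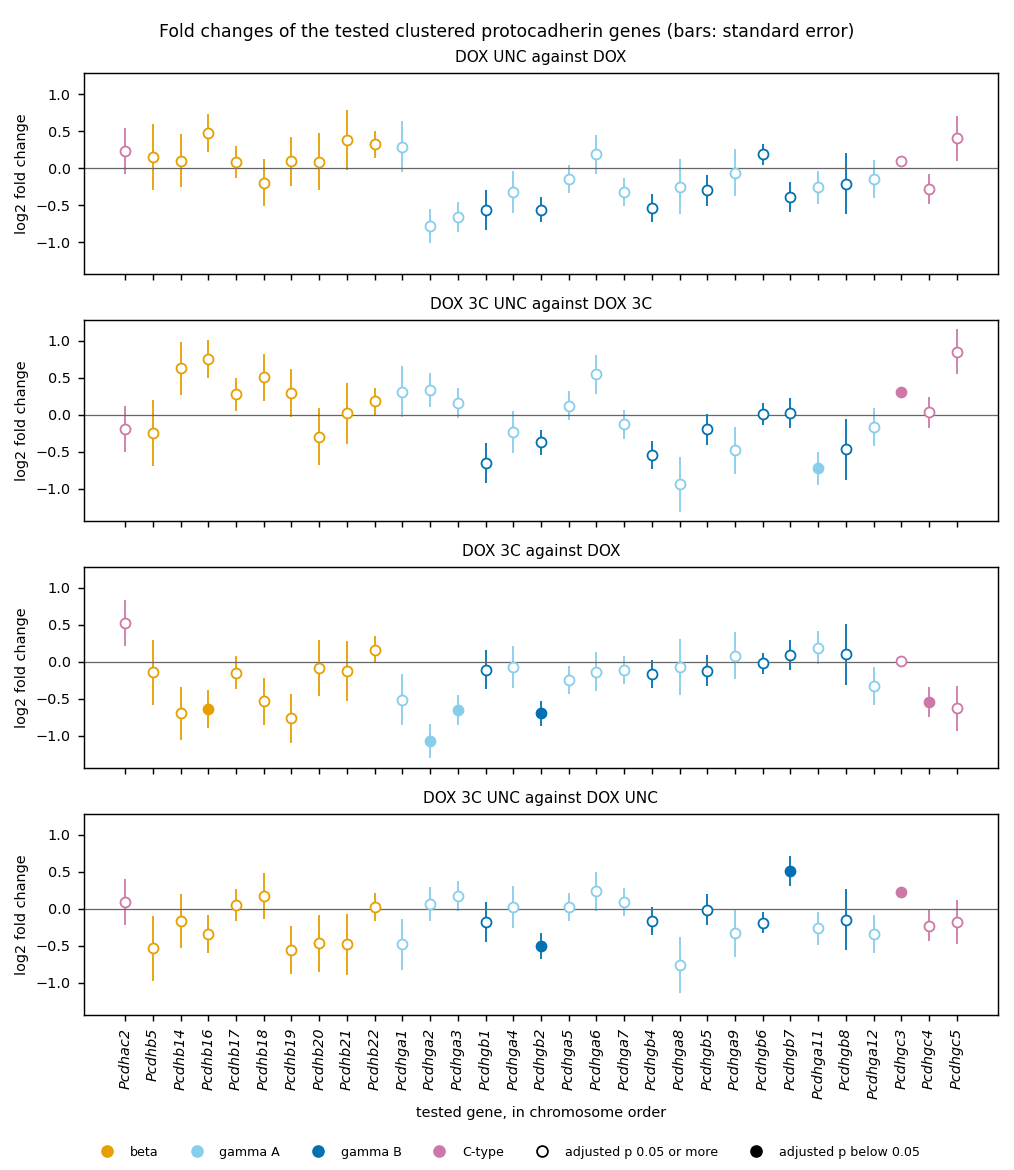
Log2 fold change (vertical axis, bars are ± 1 standard error) of the 31 tested members in chromosome order (horizontal axis), for both UNC comparisons and both 3C comparisons; filled points have an adjusted p below 0.05. No point is filled for UNC in DOX alone, 2 are filled for UNC in the presence of 3C, 5 for 3C without UNC and 3 for 3C with UNC.

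In the presence of 3C, UNC raised Pcdhgc3 and lowered Pcdhga11, and no other tested member was called (2 of 31, or 6.45%, where 11.6% of all tested genes were called). Pcdhgc3 had 979, 936 and 845 normalised counts with 3C and 1082, 1161 and 1177 with 3C and UNC. All 3 libraries with UNC lay above all 3 without it, and the log2 fold change was 0.31 ± 0.07 (95% interval 0.17 to 0.45, adjusted p = 0.00508). Pcdhga11, a gamma A gene close to the C-type genes, had 40.3, 43.0 and 33.2 with 3C and 25.6, 20.6 and 23.2 with 3C and UNC. These groups did not overlap either (log2 fold change -0.72 ± 0.22, adjusted p = 0.0446). The call for Pcdhga11 was lost with DESeq2 (adjusted p = 0.121) and without the filter on low values (0.113). It was also lost without DOX with UNC replicate 3 and without any 1 of the 6 libraries compared (0.0525 to 0.169), whereas that for Pcdhgc3 held under every alternative run.

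With the replicate number as a block, 5 members were called, 3 higher and 2 lower, and 2871 of all 16138 genes in place of 1880. The members gained were Pcdhgc5 (adjusted p = 0.0259 with the block, 0.0777 without), Pcdhgb4 (0.0436 and 0.0732) and Pcdhb16 (0.0488 and 0.0635). Without DOX with 3C replicate 1, the library high in erythroid markers, the log2 fold change of Pcdhgc5 was 0.45 (adjusted p = 0.319) in place of 0.85, and without DOX with 3C replicate 3 it was 1.14 (0.0305). Pcdhb16 was called without DOX with 3C and UNC replicate 3 (0.0374). Pcdhgc5 had 11.9, 25.2 and 32.4 normalised counts with 3C and 30.3, 37.6 and 54.1 with 3C and UNC, and the groups overlapped. Pcdhgb4 had 54.6, 56.3 and 71.0 against 45.4, 35.2 and 43.1, without overlap. Pcdhb16 had 14.2, 11.8 and 15.4 against 26.8, 29.1 and 17.7, also without overlap. Pcdhga8 had the largest log2 fold change of the members without a call, -0.94 ± 0.38 (adjusted p = 0.119). Its value was 6.06 in DOX with 3C and UNC replicate 2, where the other replicates had 21.0 and 23.2.

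In this comparison 3 members were higher without overlap (9.68% of 31, against 16.1% of all genes): Pcdhgc3, Pcdhb14 and Pcdhb16. Another 4 were lower without overlap (12.9% against 12.7%): Pcdhga8, Pcdhga11, Pcdhgb1 and Pcdhgb4. Median log2 fold changes were -0.37 for gamma B, -0.13 for gamma A, 0.28 for beta and 0.17 for the C-type genes, with 0.00 for all tested genes. The beta values summed to 195 ± 16.4 normalised counts with 3C and 246 ± 24.3 with 3C and UNC, without overlap. Of the fibroblast markers, 9 of 10 rose and none fell, and their sum went from 3323 to 3862 CPM to 5448 to 5938 CPM. Their part in the members' values was not tested.

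**Figure D4:**
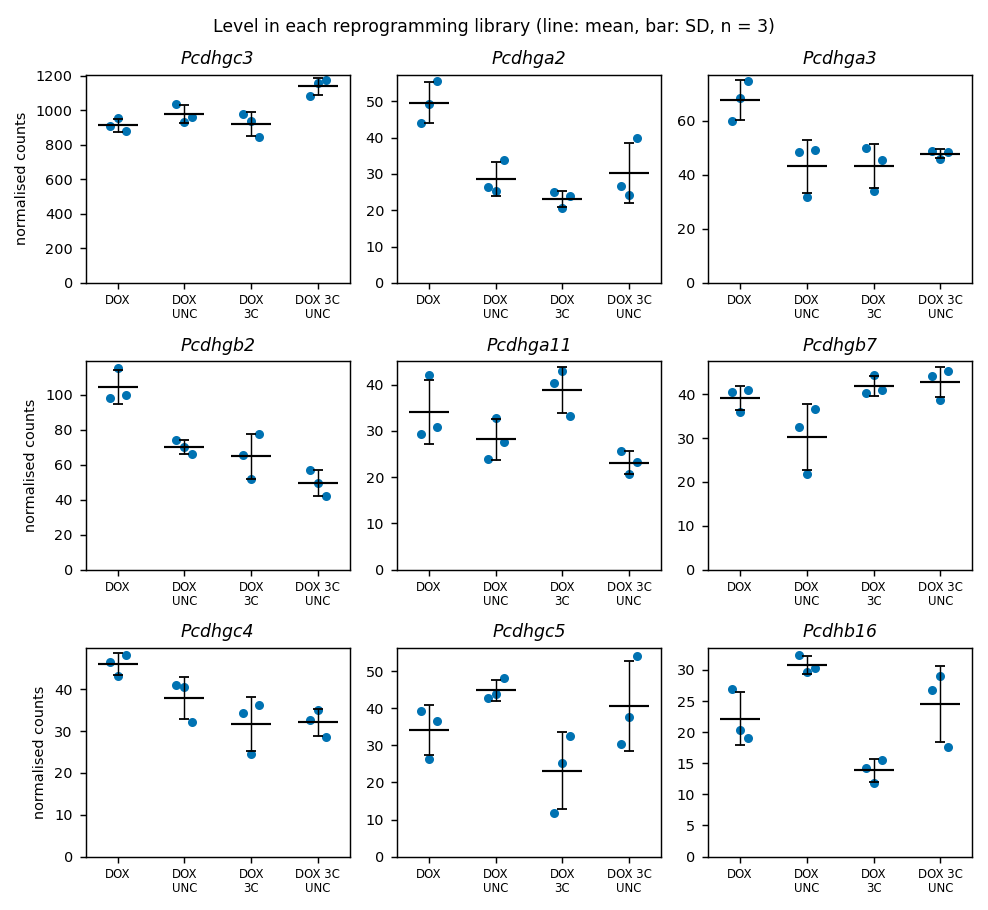
Normalised counts (vertical axes, each from 0) of 9 members in the 12 reprogramming libraries; points are libraries, lines the mean and bars the SD of 3. For Pcdhgc3 the 3 libraries with 3C and UNC lie above all 9 others, and for Pcdhga2, Pcdhga3 and Pcdhgb2 the 3 DOX libraries lie above all 9 others.

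The response to UNC was not shown to depend on 3C for any member. The difference between both UNC effects was called for 0 of 31 members and for 0.062% of all genes (limma). It was 0 with edgeR and with DESeq2 too, and 3 members (9.68%, against 11.1% of all genes) had an unadjusted p below 0.05: Pcdhga2 (difference 1.13 ± 0.32 on the log2 scale, adjusted p = 0.173), Pcdhga3 (0.82 ± 0.29, adjusted p = 0.259) and Pcdhgc3 (0.21 ± 0.09, adjusted p = 0.402).

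3C added to DOX alone lowered 5 tested members and raised none (16.1% of 31, against 49.4% of all tested genes called either way). They were Pcdhga2, Pcdhga3, Pcdhgb2, Pcdhgc4 and Pcdhb16. Pcdhga2 had 44.1, 49.2 and 55.6 normalised counts in the DOX libraries and 24.9, 20.7 and 23.9 with 3C (log2 fold change -1.06 ± 0.23, 95% interval -1.55 to -0.58, adjusted p = 0.000817). Pcdhgb2 went from 104 ± 9.53 to 64.8 ± 12.7 (SD, n = 3; log2 fold change -0.69 ± 0.17, adjusted p = 0.00249). Pcdhga3 went from 67.7 ± 7.32 to 43.1 ± 8.15 (-0.65 ± 0.20, adjusted p = 0.0125). The DOX libraries lay above those with 3C for each of these genes; they are the same DOX libraries as in the UNC comparison, so both comparisons rest on the same high values.

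The C-type gene Pcdhgc4 had 46.6, 43.2 and 48.3 normalised counts in DOX and 34.4, 24.4 and 36.3 with 3C (-0.54 ± 0.21, adjusted p = 0.0363). Pcdhb16 had 27.0, 20.4 and 19.0 in DOX and 14.2, 11.8 and 15.4 with 3C (-0.63 ± 0.26, adjusted p = 0.0489). Both groups of libraries were apart, but neither call held with DESeq2 (adjusted p = 0.106 and 0.139) or without the filter (0.0877 and 0.133). The call for Pcdhgc4 was lost without any 1 of the DOX libraries or DOX with 3C replicate 2 (0.0520 to 0.185), and that for Pcdhb16 without any 1 of 9 libraries, all but DOX replicate 3 and DOX with 3C and UNC replicates 2 and 3 (up to 0.177). Pcdhga3 lost its call without DOX replicate 3 (0.0506) or DOX with 3C replicate 2 (0.0746). Without DOX with 3C replicate 2 only Pcdhga2 and Pcdhgb2 were called, without DOX replicate 1 or without DOX replicate 3 there were 3 calls, and without the library high in erythroid markers (DOX with 3C replicate 1) there were 4. With the replicate block Pcdhgc5 was called as well (-0.63, adjusted p = 0.0479; 0.0972 without the block). Its fold change was -0.23 (adjusted p = 0.520) without DOX with 3C replicate 1, the library high in erythroid markers, and -0.92 (0.0246) without DOX with 3C replicate 3. Pcdhb19 was called without DOX with 3C and UNC replicate 2 (0.0499) or 3 (0.0150).

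7 members were lower in all 3C libraries than in all DOX libraries (22.6% against 28.4% of all genes), the 5 called ones with Pcdhb19 and Pcdhga12. No member was higher without overlap, against 29.2% of all genes. Pcdhgc3 was at 914 ± 37.7 normalised counts in DOX and 919.8 ± 68.5 with 3C. In the same comparison fibroblast markers, of which 1 of 10 rose and 5 fell, summed to 7915 to 8804 CPM in DOX and 3323 to 3862 CPM with 3C. Their part was not tested.

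Where UNC was present, 3C raised Pcdhgc3 and Pcdhgb7 and lowered Pcdhgb2 (3 of 31, 9.68%, against 47.4% of all tested genes). Pcdhgc3 had 1036, 935 and 962 normalised counts with UNC and 1082, 1161 and 1177 with UNC and 3C (log2 fold change 0.22 ± 0.07, adjusted p = 0.0101). Pcdhgb2 had 74.3, 70.1 and 66.0 against 57.1, 49.7 and 42.0 (-0.50 ± 0.17, adjusted p = 0.0218). Pcdhgb7 had 32.5, 21.9 and 36.6 against 44.3, 38.8 and 45.3 (0.51 ± 0.21, adjusted p = 0.0497). In all of these the groups were apart. The call for Pcdhgb2 was lost with DESeq2 (adjusted p = 0.0596), without DOX with UNC replicate 1 (0.0687) and without DOX with 3C and UNC replicate 3 (0.100). That for Pcdhgb7 was lost with edgeR (0.0677), DESeq2 (0.171) and no filter (0.112), and without any 1 library except DOX with UNC replicate 3 (0.0542 to 0.257). Without DOX with UNC replicate 2 its fold change was 0.30 in place of 0.51.

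Higher without overlap were the 2 raised genes (6.45% of 31, against 27.5% of all genes), and lower without overlap were Pcdhgb2 and Pcdhb16 (6.45% against 26.9%). Of the fibroblast markers 5 rose and 4 fell, and their sum was 9746 to 10185 CPM with UNC and 5448 to 5938 CPM with UNC and 3C. Their part was not tested. Across the 4 groups, Pcdhgb2 was at 104 ± 9.53 normalised counts in DOX, 70.2 ± 4.13 with UNC, 64.8 ± 12.7 with 3C and 49.6 ± 7.55 with both, and the groups with 1 addition overlapped each other. Pcdhgc3 was at 914 ± 37.7, 978 ± 52.3, 919.8 ± 68.5 and 1140.1 ± 50.7 in the same order.

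The mix of members differed between the iPSC and the reprogramming cells. At least 30 reads in one table or the other were held by 37 members. Of these, 3 were higher in all iPSC libraries than in all reprogramming libraries (8.11%, against 36.2% of 22273 genes under the same rule), 21 were lower (56.8% against 24.6%) and 13 overlapped. The higher ones were Pcdhga12, with a mean of 2.40 CPM during reprogramming and 7.24 CPM in the iPSC (3.02-fold), Pcdhgb8 (3.02-fold) and Pcdhga1 (1.92-fold). Pcdhga12 and Pcdhgb8 are the gamma A and gamma B genes next to the C-type genes, and Pcdhga1 is the first of the gamma cluster. Among the lower ones, Pcdhgc3 had 64.4 CPM during reprogramming and 11.04 CPM in the iPSC, a ratio of 0.171, and Pcdhgb6 had 6.95 and 0.922 CPM, a ratio of 0.133. Pcdhga6 had a ratio of 0.0890, and among the beta genes Pcdhb19 had 0.0807 (275 and 18 reads) and Pcdhb21 0.0659 (149 and 8 reads). Both beta ratios rest on fewer than 30 iPSC reads, so they are less certain than the other ratios. The rule of 30 reads in either table admits such genes through the table in which they are high, which adds to the count of lower members. With at least 30 reads in both tables, 3 of 25 members were higher in the iPSC, 14 were lower and 8 overlapped. Of 16764 genes under that stricter rule, 34.0% were higher and 26.8% lower. Of the other C-type genes, Pcdhgc4 had a ratio of 0.141 and Pcdhac2 of 0.240, while Pcdhgc5 had 1.96 with overlapping ranges. Such values are set across tables made separately.

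**Figure D5:**
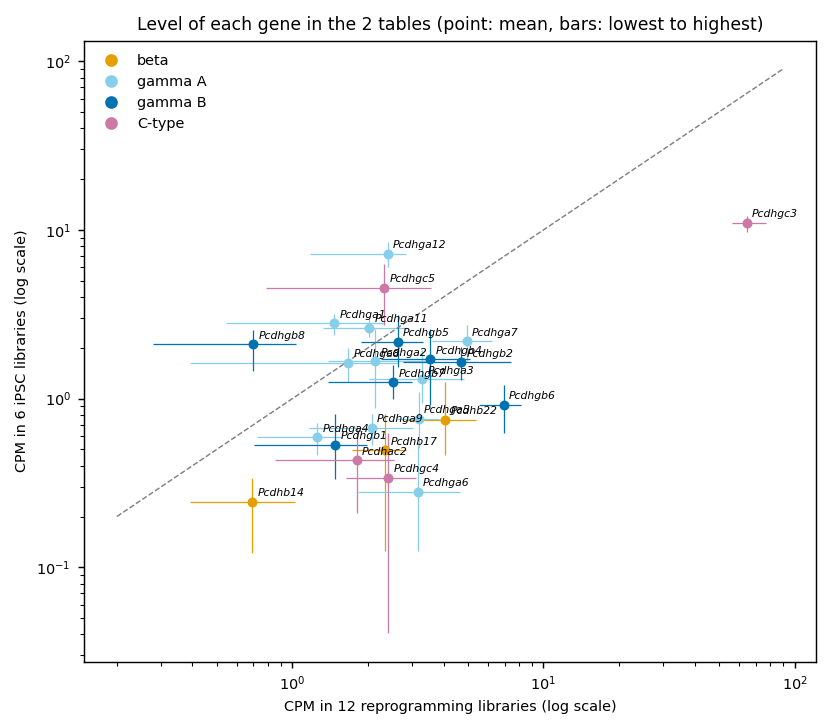
Mean CPM of each of the 25 members with at least 30 reads in both tables, in the 12 reprogramming libraries (horizontal) and the 6 iPSC libraries (vertical), both on log scales; bars run from the lowest to the highest library and the dashed line marks equal levels. Pcdhga12, Pcdhgb8, Pcdhga1 and Pcdhgc5 lie above the line with bars clear of it, though the 2 ranges of Pcdhgc5 overlap. Pcdhgc3, at 64.4 and 11.04 CPM, lies below it. Not drawn are 12 members with fewer than 30 reads in 1 table, all beta genes.

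In iPSC derived with UNC, 0 of 21 tested members were called against DMSO, where 1.31% of 17987 genes were called (edgeR). Still, 19 of the 21 had a positive log2 fold change, with a median of 0.26 against -0.01 for all genes, and 5 (23.8%, against 12.3% of all genes) had an unadjusted p below 0.05, all higher: Pcdhgc5, Pcdhga2, Pcdhgb2, Pcdhgb4 and Pcdhb22. The libraries of the 2 groups did not overlap for 6 members, all higher with UNC (28.6% of 21, against 8.95% of all genes), namely these 5 and Pcdhb17. None was lower without overlap, against 10.3% of all genes.

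Pcdhgc5 had 2.73, 4.41 and 3.00 CPM with DMSO and 5.12, 5.76 and 6.25 CPM with UNC (log2 fold change 0.76 ± 0.19, adjusted p = 0.101). The lowest UNC library was above the highest DMSO library. The gene was called with DESeq2 (adjusted p = 0.0202), without the filter on low counts (0.000846) and without DMSO replicate 2 (0.0256). Pcdhga2 had 1.76, 0.905 and 0.875 CPM with DMSO and 1.87, 1.99 and 2.59 with UNC (0.87 ± 0.30, adjusted p = 0.263), and was called without the filter (0.0389). Pcdhgc3, the member with the most reads, was at 10.8 ± 1.21 CPM with DMSO and 11.3 ± 0.105 CPM with UNC.

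All members summed to 46.8 ± 2.85 CPM with DMSO (45.2 to 50.1) and 56.0 ± 3.09 CPM with UNC (52.6 to 58.6). The beta genes, of which 2 could be tested, summed to 1.75 to 2.20 CPM with DMSO and 3.10 to 3.69 CPM with UNC. Neither pair of ranges overlapped. Fibroblast markers moved in the same libraries: 7 of 10 rose with UNC and none fell, and they summed to 1423 to 1781 CPM with DMSO and 2535 to 2572 CPM with UNC. Of the pluripotency markers 0 of 8 were called. All 5 epithelial markers had a negative log2 fold change (median -0.69), with 0 called. They summed to 895 to 1035 CPM with DMSO and 838 to 852 CPM with UNC. The beta sum was 12.02 to 17.8 CPM in the reprogramming libraries. The part of the fibroblast and epithelial marker values in the members' values was not tested.

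A list of 26 genes held those that act on the clusters or were studied there, with genes of the G9a and GLP complex. Under UNC in DOX alone 1 of them, Lrif1, whose protein binds Smchd1, fell (log2 fold change -0.53 ± 0.11, adjusted p = 0.0269, limma). That is 3.85% of the list, where 0.0991% of all genes were called lower and 0.607% either way. Of the 26, 24 had a negative log2 fold change and 2 a positive one (median -0.05, against 0.00 for all genes). Under UNC with 3C 4 fell and none rose (15.4%, where 3.94% of all genes were called lower and 11.6% either way). They were the maintenance DNA methyltransferase gene Dnmt1 (-0.21), the cohesin subunit gene Stag2 (-0.20) and the cohesin regulators Pds5b (-0.30) and Pds5a (-0.16). With 3C 2 rose and 12 fell without UNC (53.8% called, against 49.4% of all genes), and 1 rose and 15 fell with it (61.5% against 47.4%), among them the cohesin subunit gene Rad21 (-0.42 ± 0.06 and -0.39 ± 0.06) and Ctcf (-0.15 and -0.16, each ± 0.05). The medians of the list under 3C were -0.14 in both comparisons, against 0.02 and 0.01 for all genes. Ctcf was not called under UNC (adjusted p = 0.874 without and 0.565 with 3C), nor were Smchd1, the silencing factor active at these clusters (0.998 and 0.156), Wiz (0.280 and 0.534), Ehmt1 (0.962 and 0.189) or Ehmt2 (0.993 and 0.516), the targets of UNC0638. None of the 26 was called in the iPSC.

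Of 8 tested protocadherins encoded outside the clusters, 5 fell with 3C in DOX alone (62.5%, where 24.7% of all genes fell) and 4 in the presence of UNC (50.0% against 23.5%), with medians of -0.88 and -0.73. Pcdh18 was at 1395 ± 22.3 normalised counts in DOX and 414 ± 38.0 with 3C (log2 fold change -1.75 ± 0.10, adjusted p = 6.95e-11), and Pcdh19 fell by 1.54 on the log2 scale. UNC with 3C raised Pcdh19 (0.32 ± 0.09, adjusted p = 0.0238) and lowered Pcdh17 (-0.92 ± 0.23, adjusted p = 0.0133). In the iPSC none of 6 tested was called. The medians of the clustered members in the 3C comparisons were -0.13 and -0.17; no test was made between these lists.

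Of 19 partners, such as the kinases and WAVE complex proteins that bind the cytoplasmic ends, 0 were called under UNC in DOX alone and 1 under UNC with 3C, the receptor gene Ret, which fell by 0.84. With 3C 2 rose and 10 fell without UNC (63.2% called, against 49.4% of all genes), and 3 rose and 11 fell with UNC (73.7% against 47.4%), among them the kinase gene Fyn (-1.44 and -1.47, each ± 0.08) and the N-cadherin gene Cdh2 (-0.70 and -0.85, each ± 0.10). Other genes within 500 kb of the clusters served as a positional comparison. Of 60 such genes 47 were in the table and 26 were tested, of which 0 were called under UNC in DOX alone and 1 under UNC with 3C, Arap3, which rose by 1.15 ± 0.34 (adjusted p = 0.0384). With 3C 4 rose and 8 fell (46.2% called, against 49.4% of all genes), and in the presence of UNC 6 rose and 4 fell (38.5% against 47.4%). Wdr55 rose by 0.61 in both 3C comparisons, and the formin gene Diaph1 fell by 0.48 and 0.49.

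Over the 12 reprogramming libraries, the summed members were most like Ptms (Pearson r = 0.93 on log2 values), followed by Crtc1 (0.87), Sept8 (0.86), Hcfc1r1 (0.86) and Dag1 (0.86). These are the highest of all tested genes, the libraries share their groups, and the values are a description.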

How the data were processed

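RNA was measured with a stranded total RNA kit in 18 libraries, 12 of reprogramming cells and 6 of iPSC. The submitters' processing notes name mm10, the aligner TopHat2 2.1.0, the counter HTSeq 0.5.4p3, SAMtools 1.8, and DESeq without a version; whether reads were counted by strand is not given in the sources used here. The deposited reprogramming table holds signal: the authors had divided each library's read counts by 1 factor. Dividing by each column's step gave whole reads for 100% of the non-zero values (within 0.01 read). The deposited iPSC table holds raw counts. Another 2 columns of the reprogramming table belong to no sample listed and were left out, and the 10 H3K9me2 samples were not analysed here. For DMSO iPSC, replicate numbers are those of the titles, with which the descriptions disagree.

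Reprogramming values were tested as log2(value + 1) with limma 3.58.1 under R 4.3.3, as a linear model with empirical Bayes moderation along a mean trend. One fit held all 12 libraries and the 16138 genes that reached a value of 10 in 3 or more of them; fold changes on this scale understate those of low genes. The iPSC counts were tested with edgeR 4.0.16 (quasi-likelihood test, TMM scaling, filterByExpr) for 17987 genes. P-values were adjusted by Benjamini-Hochberg over all genes of a comparison, with calls at an adjusted p below 0.05. On the recovered reads, edgeR called 94 genes for UNC in DOX alone where limma called 98. Alternatives were pseudocounts of 0.5 and 5, no filter, edgeR and DESeq2 1.42.0 on recovered reads, a replicate block, and leaving out each library. The fit was tested on simulated data. CPM are reads per 1e+06 gene reads. Intervals and floors from reads cover counting error only.

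Same-numbered libraries deviated together in the reprogramming table (r = 0.0595 to 0.223 over 18 pairs, against -0.194 to -0.0103 over 36 pairs of different number). All 3 pairs were over 0.1 for UNC with 3C and both 3C comparisons, so blocked values stand beside those results where they change a call. For UNC in DOX alone the pairs had r = 0.223, 0.211 and 0.0940. The block called 0 members there, and 409 of all genes in place of 98. The labels do not say what a number shares.

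The members, lists and rules were chosen with earlier results of these data known. Named members were all called ones, the 3 highest of each group in reprogramming and the 2 highest in iPSC, the C-type genes, and the 2 largest uncalled changes per UNC comparison; of other lists, up to 4 called genes per comparison by p, and Ctcf, Rad21, Smchd1, Wiz, Ehmt1 and Ehmt2. Members named because their libraries did not overlap or for their unadjusted p were chosen after their values were seen. The rule of 30 reads in either table was also set after the values were seen.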

Additional observations from a re-analysis of the deposited data

How the results depend on the processing

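No member was called for UNC in DOX alone or for the difference of both UNC effects under any alternative run. For UNC with 3C the 2 calls became 1 without the filter and with DESeq2, 5 with the replicate block, and 1 to 2 when a library was left out. Without DOX with 3C replicate 1 both of the 2 calls were higher: Pcdhgc3 and a further member, not named here. For 3C without UNC the 5 calls became 3 without the filter and with DESeq2, and 2 to 6 when a library was left out. For 3C with UNC the 3 calls became 1 with DESeq2 and 1 to 3 when a library was left out. There were 3 without the filter too, but 1 higher and 2 lower: Pcdhgb7 was lost and a further member, not named here, was called lower. Pcdhga8 was called lower without DOX with 3C and UNC replicate 3 (log2 fold change -1.08, adjusted p = 0.0363, limma). For the iPSC the 0 calls became 1 with DESeq2, 2 without the filter, 1 with the replicate block (Pcdhgc5, adjusted p = 0.0435) and 0 to 1 when a library was left out. Same-numbered iPSC libraries had r = 0.0490 to 0.109 over 3 pairs, a range that overlapped the -0.128 to 0.0937 over 6 pairs of different number. Whether they pair is therefore not settled. Besides the blocked calls given here and above, the block changed no member's call. Over the named genes, 999 values kept direction and side of the threshold, 45 lost and 15 gained a call, and 3 changed sign when a library was left out: Pcdhga1 for UNC with 3C (-0.13 to 0.66), Pcdhga12 for 3C with UNC (-0.58 to 0.016) and Pcdhgb5 in the iPSC (-0.0058 to 0.51). This count was set a minimum log2 fold change of 0.25 in either direction, so it does not show how steady smaller changes were.

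Over all genes, UNC in DOX alone called 98, 169 with DESeq2, 409 with the block and 19 to 146 when a library was left out. UNC with 3C called 1880, 2871 with the block and 1034 to 1921 when a library was left out. The difference of both called 10, 29 with a pseudocount of 5, 17 with edgeR, 155 with DESeq2, 413 with the block and 0 to 70 when a library was left out. The iPSC comparison called 236, 392 with DESeq2, 823 without the filter, 407 with the block and 84 to 217 when a library was left out. The filter on low values kept 27 of 58 members out of the reprogramming test, all alpha genes among them.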
